A study of Homo sapiens with 14 samples.

Results

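The regions described here are the NF-κB binding regions of L1236 cells assigned to 8 regulators of apoptosis, chosen by the rule that the closest gene or the closest transcription start site (TSS) in the deposited table is one of these genes. The rule gave 35 of the 14865 union regions. The genes are *BCL2L1* (ENSG00000171552), *BCL2* (ENSG00000171791), *BCL2A1* (ENSG00000140379), *MCL1* (ENSG00000143384), *BIRC2* (ENSG00000110330), *BIRC3* (ENSG00000023445), *CFLAR* (ENSG00000003402) and *FAS* (ENSG00000026103), and each had at least 1 region. L1236 is an established cell line from Hodgkin lymphoma, a B cell malignancy with constitutively active NF-κB. Chromatin of L1236 cells was precipitated with antibodies against p50 (sc-1190), p52, RelA (labelled p65, sc-372) or RelB (sc-226) in 2 replicates each, next to 6 input libraries, and the p52 replicates were made with 2 different antibodies, a mouse monoclonal and a rabbit polyclonal one. Only this cell line was profiled, so there is no second condition or normal B cell group to compare it with.

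Mitochondrial apoptosis is held in check by the BCL2 family survival proteins, which bind the pore-forming effectors and their BH3-only activators. Death receptors such as FAS start a separate, caspase-8 dependent pathway, which the caspase-8 relative c-FLIP (encoded by *CFLAR*) blocks, whereas the inhibitor of apoptosis proteins cIAP1 and cIAP2 (encoded by *BIRC2* and *BIRC3*) act as ubiquitin ligases in TNF receptor signaling. NF-κB dimers bind κB sites in promoters and enhancers, and p50 and p52 reach DNA either as partners of RelA and RelB or without them.

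The promoter windows of 3 members are shown because they hold a match to the κB consensus and their genes carry a region at or next to the TSS. The sequences are RefSeq promoters of GRCh38.p14, from 250 bases before to 50 bases after an annotated start, 5′ to 3′ on the gene's strand, and the capitals mark the match. They are the only *BIRC3* window (chr11:102317234-102317533, plus strand), 1 of 4 *CFLAR* windows (chr2:201118466-201118765, plus strand) and 1 of 3 *FAS* windows (chr10:88991181-88991480, plus strand).

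BIRC3: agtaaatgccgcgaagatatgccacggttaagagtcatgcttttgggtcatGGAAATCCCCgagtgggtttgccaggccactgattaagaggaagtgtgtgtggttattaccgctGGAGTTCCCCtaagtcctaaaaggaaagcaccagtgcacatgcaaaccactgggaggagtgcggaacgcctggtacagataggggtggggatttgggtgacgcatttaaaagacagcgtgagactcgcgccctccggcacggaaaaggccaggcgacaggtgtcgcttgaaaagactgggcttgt

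CFLAR: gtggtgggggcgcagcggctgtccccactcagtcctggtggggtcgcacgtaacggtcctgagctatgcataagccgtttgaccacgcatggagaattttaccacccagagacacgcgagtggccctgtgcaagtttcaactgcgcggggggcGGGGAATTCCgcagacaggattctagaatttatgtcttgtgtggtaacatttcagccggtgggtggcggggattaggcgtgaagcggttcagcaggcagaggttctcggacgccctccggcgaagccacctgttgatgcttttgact

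FAS: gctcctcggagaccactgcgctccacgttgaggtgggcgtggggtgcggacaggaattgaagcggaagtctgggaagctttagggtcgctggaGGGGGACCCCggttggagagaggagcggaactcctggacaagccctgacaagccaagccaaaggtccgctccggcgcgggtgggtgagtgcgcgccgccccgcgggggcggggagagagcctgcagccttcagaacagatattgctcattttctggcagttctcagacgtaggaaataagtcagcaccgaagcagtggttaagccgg

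The consensus searched was the degenerate decamer of κB sites, 3 G, a purine, 2 free bases, 2 pyrimidines and 2 C, on both strands. The *BIRC3* window held 2 matches, GGAAATCCCC and GGAGTTCCCC, which start 199 and 135 bases before the annotated start, both as the reverse complement of that pattern. The *CFLAR* match, GGGGAATTCC, starts 97 bases and the *FAS* match, GGGGGACCCC, 157 bases before the start. Of all 35116 promoter windows of this length, 11.3% held at least 1 match and 2.04% at least 2. Of the 14 windows of the 7 members found in the RefSeq table, 3 held a match, and the windows of *BIRC2*, *BCL2A1*, *BCL2* and *BCL2L1* did not contain these letters. *MCL1* was not matched. The binding regions below are in hg18, so whether a match lies under a summit was not tested.

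Calls, fold enrichments, pileups and read numbers come from merged replicates, and therefore carry no replicate error. The 4 subunits had between 315151 (RelA) and 1810792 (p52) reads in all 14865 regions, of which the 35 member regions held 967 RelA, 1693 RelB, 5151 p50 and 7028 p52 reads. Intervals for read numbers are exact Poisson 95% intervals and those for shares of reads are exact Clopper-Pearson 95% intervals, and both cover counting error only. The irreproducible discovery rate (IDR) between replicates is the authors'. The signal values, 2 per subunit and region, are the only values per replicate. A percentile of a fold enrichment is its rank among all regions called for that subunit. No statistical test between conditions was possible.

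p50 and p52 accounted for most calls at the apoptosis genes, as they did over all regions. p50 was called in 28 of the 35 regions, compared with 73.8% of all regions, and p52 in 31, compared with 73.3%. Both were called in 24 regions (51.4% of all regions). RelB was called in 13 (26.8% of all regions), in each of them together with p50 and p52, and 10 of these had no RelA call (17.1% of all regions). Of the 3984 RelB regions in the whole set, 2539 had p50 and p52 without RelA and 349 had all 4 subunits. Of the 35 member regions, RelA was called in only 4 (3.31% of all regions), which belong to *BIRC3*, *CFLAR* and, with 2 regions, *BCL2L1*. All 4 subunits were called in 3 regions (2.35% of all regions). Of the RelA calls, those at *BCL2L1* were weak, and 2 of the 4 were left at a minimum fold enrichment of 5. All libraries passed the quality control of the study. Normalized strand cross-correlation, a quality measure of the ChIP libraries, was lower for RelA than for p50, p52 and RelB. Its part in the missing RelA calls was not tested. With an IDR below 0.001 there were 18 p50, 24 p52, 9 RelB and 2 RelA calls, and 17 regions with p50 and p52. Over all regions 71.2%, 71.6%, 50.3%, 45.3% and 71% of the respective calls were kept.

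Single-subunit regions were 4 with p50 alone (21.2% of all regions) and 7 with p52 alone (19.8% of all regions), and none had RelA or RelB alone. In the whole set 6690 regions had a single subunit, 3158 of them p50 and 2936 p52, so RelA or RelB alone was rare there too. Of the 11 member regions with a single subunit, 10 lay 1 kb or more from the TSS, as did 78.8% of all such regions. Within 1 kb of the TSS, where 7 of the member regions lay (20.1% of all regions did), p50 was called in 7, p52 in 6, RelB in 4 and RelA in 3. Among all 2988 regions within 1 kb of a TSS, the same calls were made in 93%, 55.1%, 25.6% and 4.18%. *BCL2A1* was the gene without a region there.

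**Figure D1:**
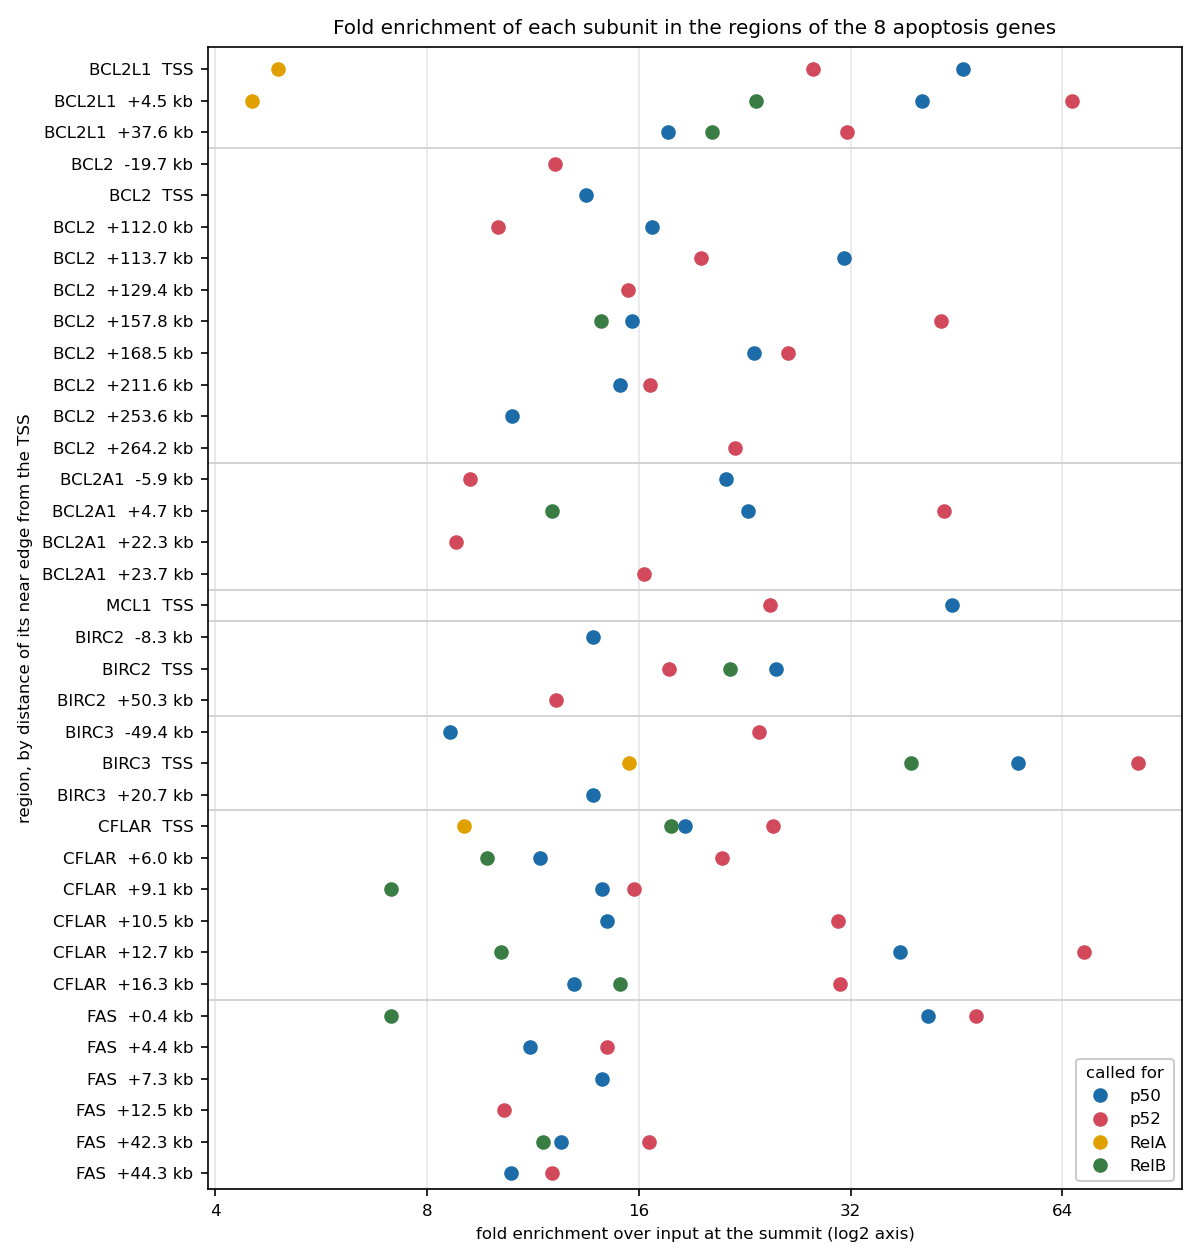
Fold enrichment over input at the summit (log2 axis) for each subunit called in each region, by gene and by distance of the region's near edge from the TSS. The region between *BIRC3* and *BIRC2* is drawn under both genes. The *BIRC3* TSS region carries the highest p50, p52, RelA and RelB values of the set, 55.4, 81.9, 15.5 and 39.0.

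By fold enrichment, the called member regions were close to the median of all called regions for p50, at 16.2 (n = 28) compared with 16.8 over all 10975. In reads per kb of region the p50 medians were 89.4 and 106. For p52 the median fold enrichments were 21.0 (n = 31) and 17.2, but the medians in reads per kb of region were 100 and 111. For RelB the median fold enrichments were 14.1 (n = 13) and 9.08, which put the median member at the percentile 77.3. It stood at 35.2 when reads per kb of region were ranked in place of the fold enrichment. Member regions had a median width of 1229 bp compared with 863 bp for all regions, and reads per kb are averaged over that width.

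*BCL2L1*, which encodes the survival protein Bcl-X_L, had 3 regions that touched the gene, and all of them were called for p50 and p52. The TSS region (chr20:29773403-29775576) had a fold enrichment of 46.2 for p50 (639 reads, 590 to 691) and 28.3 for p52 (453 reads, 412 to 497). RelA was called there at 4.92 (91 reads, 73.3 to 112). RelB was not called in this region although it held 136 RelB reads (114 to 161), that is 62.6 per kb, at the percentile 74.3 of the regions called for RelB.

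The region 4.49 kb downstream of the *BCL2L1* TSS (chr20:29768156-29769834) was called for all 4 subunits. Its fold enrichment was 40.4 for p50 (517 reads, 473 to 564) and 66.0 for p52 (1062 reads), at the percentiles 93.0 and 98.5. RelB reached 23.5 (201 reads, 174 to 231) and RelA 4.51 (62 reads, 47.5 to 79.5). Its 4 summits lay within 78 bp of each other. This is also the region in which the study placed its ChIP-qPCR amplicon for *BCL2L1*, whose primers are shown to mark the site.

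BCL2L1_SP3: ACCATCACAGGGTTTTCCAG

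BCL2L1_RP3: CCGGGTAATTTTCGACAGAA

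p50 and p52 were thus distributed differently over these 2 *BCL2L1* regions. p50 made up 58.5% (55.5 to 61.5) of the p50 and p52 reads at the TSS and 32.7% (30.4 to 35.1) in the downstream region. From the downstream to the TSS region the p50 signal values changed 1.14-fold and 1.06-fold in the 2 replicates, whereas the p52 signal values at the TSS were 0.213 and 0.262 of those downstream. In both replicates the p52 signal value, but not that of p50, was thus lower at the TSS than downstream. These scores have no stated scale, and the merged p52 fold enrichment at the TSS was 0.429 of that downstream. The deposited summits of the TSS region did not coincide. The p50 and p52 summits lay 721 and 726 bp upstream of the TSS and the RelA summit 303 bp downstream of it. The region 37.6 kb downstream (chr20:29735311-29736766) had fold enrichments of 17.6 for p50, 31.6 for p52 and 20.3 for RelB, with summits within 15 bp, and RelA was not called (22 reads, 13.8 to 33.3).

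*BCL2*, the founding survival gene of the family, had 10 regions, and 1.20% of the 8450 genes with a region had at least as many. They reached from 19.7 kb upstream to 264 kb downstream of the TSS, and 6 touched the gene itself. The regions 264 and 254 kb downstream lie 67424 and 56835 bp past the end of the gene, and their closest TSS is that of another gene. The closest gene of the region 19.7 kb upstream is another one. The count of 10 includes all of these. RelA was called in none of the 10 regions, and its reads ranged from 1 to 107 per region. The TSS region (chr18:59137499-59139286) was called for p50 alone, with a fold enrichment of 13.5 at the percentile 32 (106 reads, 86.8 to 128). It held 58 p52 reads (44 to 75), 10 RelA reads and 27 RelB reads, so the promoter was one of the weaker regions of the gene.

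The *BCL2* region with the highest fold enrichment lay 158 kb downstream of the TSS (chr18:58975730-58980518). There p52 had a fold enrichment of 43.0 (960 reads), p50 of 15.6 (528 reads, 484 to 575) and RelB of 14.1 (176 reads, 151 to 204), the only RelB call at this gene. At 4789 bp it was the widest member region, and its p50, p52 and RelB summits lay up to 1960 bp apart, where the table gives only the most significant peak of each subunit per region. Of the other regions, 4 carried p50 and p52 together with p50 values of up to 31.3. Those called for a single subunit besides the TSS were 1 with p50, 254 kb downstream (10.6; 32 p50 and 5 p52 reads), and 3 with p52, which lay 264 kb downstream (21.9), 129 kb downstream (15.4) and 19.7 kb upstream (12.1).

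*BCL2A1* encodes the survival protein BFL-1/A1. It had 4 regions, none of them within 1 kb of the TSS, and p52 was called in all 4. The region with the highest value lay 4.67 kb downstream of the TSS within the gene (chr15:78045129-78046023), with fold enrichments of 43.4 for p52 (168 reads, 144 to 195), 22.9 for p50 (79 reads, 62.5 to 98.5) and 12.0 for RelB (43 reads, 31.1 to 57.9), and with summits within 24 bp. The region 5.89 kb upstream (chr15:78056591-78057255) showed the opposite order, with 21.3 for p50 and 9.21 for p52.

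The p50 share of the p50 and p52 reads was 71.5% (63.8 to 78.4) in the upstream and 32% (26.2 to 38.2) in the downstream region of *BCL2A1*. From the downstream to the upstream region the p50 signal values changed 1.17-fold and 1.77-fold, while those of p52 were 0.0872 and 0.195 of the downstream values. As at *BCL2L1*, the p52 signal differed between the regions in both replicates. The remaining regions, 22.3 kb and 23.7 kb downstream, were called for p52 alone at 8.78 and 16.3.

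*MCL1*, which encodes a short-lived survival protein, had a single region, over its TSS (chr1:148817810-148819141). p50 had a fold enrichment of 44.7 (234 reads, 205 to 266) and p52 of 24.5 (109 reads, 89.5 to 131), and their summits lay 2 bp apart. The p50 value stood at the percentile 95.5. RelA and RelB were not called, with 22 (13.8 to 33.3) and 19 (11.4 to 29.7) reads, at the percentiles 56.3 and 40.3 of the reads per kb in regions without the respective call.

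*BIRC3*, which encodes cIAP2, carried the region with the highest fold enrichment of every subunit, whereas the *BCL2L1* region 4.49 kb downstream had more p50 and p52 reads per kb (308 and 633, compared with 173 and 341) and higher signal values of both. Over its TSS (chr11:101692401-101693877) the fold enrichment was 55.4 for p50 (256 reads, 226 to 289), 81.9 for p52 (504 reads, 461 to 550), 15.5 for RelA (78 reads, 61.7 to 97.3) and 39.0 for RelB (182 reads, 157 to 210). These values stood at the percentiles 98.7, 99.6, 98.2 and 99.3 of the subunits' called regions. All 4 summits lay within 57 bp, between 80 bp (p50) and 137 bp (RelB) upstream of the TSS. The signal values were 1433 and 1417 for p50, 933 and 3980 for p52, 329 and 193 for RelA, and 1689 and 2415 for RelB. The p52 values thus differed most between the replicates, whose antibodies differed as well; the part of the antibody in this was not tested.

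The other *BIRC3* regions were weaker. The region 49.4 kb upstream, whose closest gene is another one, had 23.7 for p52 and 8.61 for p50. A region 20.7 kb downstream of the *BIRC3* TSS (chr11:101714086-101714922) begins 428 bp past the end of the gene and ends 8.25 kb upstream of the TSS of its neighbour *BIRC2*, and was counted once and described under both. It was called for p50 alone (13.8; 43 p50 and 30 p52 reads).

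*BIRC2*, which encodes cIAP1, was bound over its TSS (chr11:101721604-101724347) by p50 at 25.1 (264 reads, 233 to 298), p52 at 17.7 (312 reads, 278 to 349) and RelB at 21.5 (93 reads, 75.1 to 114). RelA was not called, with 39 reads (27.7 to 53.3). In contrast to *BIRC3*, the summits did not coincide. Those of p50 and p52 lay 359 and 367 bp upstream of the TSS and that of RelB 1156 bp upstream, 797 bp from the p50 summit. In addition, p52 alone was called 50.3 kb downstream, in another gene (12.2; 36 reads).

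*CFLAR* had 6 regions, from its TSS to 16.3 kb downstream, all touching the gene and all called for p50 and p52, with RelB in 5. Of the 8450 genes with a region, 5.37% had at least as many. The TSS region (chr2:201688872-201692199) was called for all 4 subunits, with 18.6 for p50 (305 reads, 272 to 341), 24.8 for p52 (329 reads, 294 to 367), 9.04 for RelA (88 reads, 70.6 to 108) and 17.8 for RelB (142 reads, 120 to 167). Its deposited summits, which are those of the most significant peak of each subunit, did not coincide. The p50 summit lay 613 bp and the p52 summit 1503 bp downstream of the TSS, whereas the RelA and RelB summits lay 2437 and 2459 bp downstream, 22 bp from each other. Of all 349 regions called for all 4 subunits, 82.2% had their summits within 200 bp, as did *BIRC3* and *BCL2L1* but not *CFLAR*.

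The highest *CFLAR* fold enrichments of p50 and p52 were found 12.7 kb downstream of the TSS (chr2:201701806-201703226), with 37.6 for p50 (173 reads, 148 to 201) and 68.7 for p52 (384 reads, 347 to 424). RelB was called there at 10.2 (49 reads, 36.3 to 64.8), whereas its highest fold enrichment at this gene was the 17.8 of the TSS region. RelA was not called in the region 12.7 kb downstream, with 39 reads (27.7 to 53.3). The p52 signal values were 1109 and 2499, compared with 171 and 698 in the TSS region, and so were higher in both replicates. In all 6 regions p52 had a higher fold enrichment than p50, by 1.11-fold to 2.39-fold. In the 5 regions downstream of the TSS region the called summits lay within 31 bp of each other.

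*FAS*, the death receptor, is the member that promotes rather than blocks apoptosis. It had 6 regions and no RelA call. The one with the highest fold enrichment began 439 bp downstream of the TSS (chr10:90739645-90741942), with 41.3 for p50 (253 reads, 223 to 286), 48.3 for p52 (280 reads, 248 to 315) and 7.10 for RelB (55 reads, 41.4 to 71.6). Its summits lay within 19 bp, at 1123 to 1142 bp downstream. RelA had 53 reads (39.7 to 69.3) without a call. Of the others, RelB was called once more, 42.3 kb downstream of the TSS (11.7), p50 alone 7.31 kb downstream (14.2) and p52 alone 12.5 kb downstream (10.3). The p50 share of the reads in the *FAS* regions called for both ranged from 40.5% to 47.5%.

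**Figure D2:**
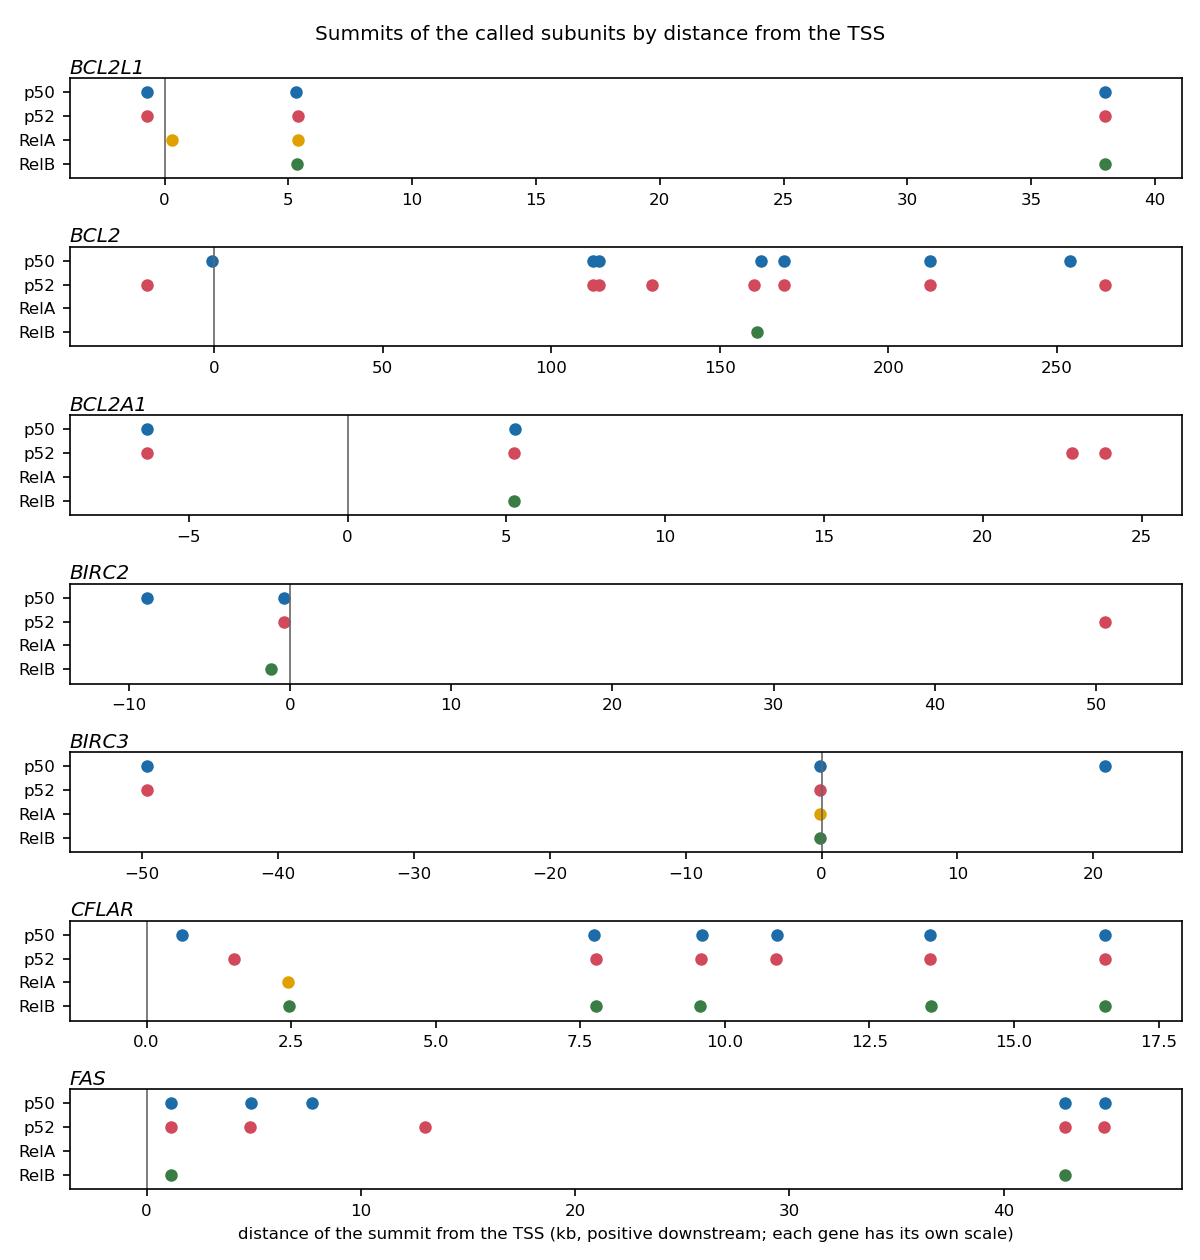
Distance of each called summit from the TSS in kb (positive downstream) for the 7 members whose TSS could be placed from the deposited distances, 1 panel per gene with its own scale and 1 row per subunit. *BIRC3* shows all 4 summits in register upstream of the TSS, *CFLAR* shows the p50, p52 and RelA/RelB summits of its TSS region at 613, 1503 and 2437 to 2459 bp.

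Over the 24 member regions called for both p50 and p52, the median log2 ratio of p50 to p52 fold enrichment was -0.39, compared with -0.12 over all 7643 such regions. p52 was higher in 18 of the 24, compared with 56.8% of all such regions. With the signal values the direction depended on the p52 replicate. The member median was 0.28 and 0.090 against p52 signal value 1 and -0.72 and -1.13 against value 2, where those of all regions were 0.78, 0.47, -0.27 and -0.51. In each of these 4 pairings the member median was lower than that of all regions, by 0.38 to 0.61. Without *CFLAR* the member median was -0.21. Of the 5 that overlapped the TSS, p50 was higher in 3 (*MCL1*, *BCL2L1* and *BIRC2*, at 0.86, 0.71 and 0.51, although the *BIRC2* region held more p52 than p50 reads) and p52 in *BIRC3* and *CFLAR* (-0.56 and -0.41). Over all 1238 regions of this kind p50 was higher in 72.1%. Of the 19 that did not overlap the TSS, p50 was higher in 3, 2 of *BCL2* and the upstream region of *BCL2A1*, compared with 37.7% of all 6405.

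**Figure D3:**
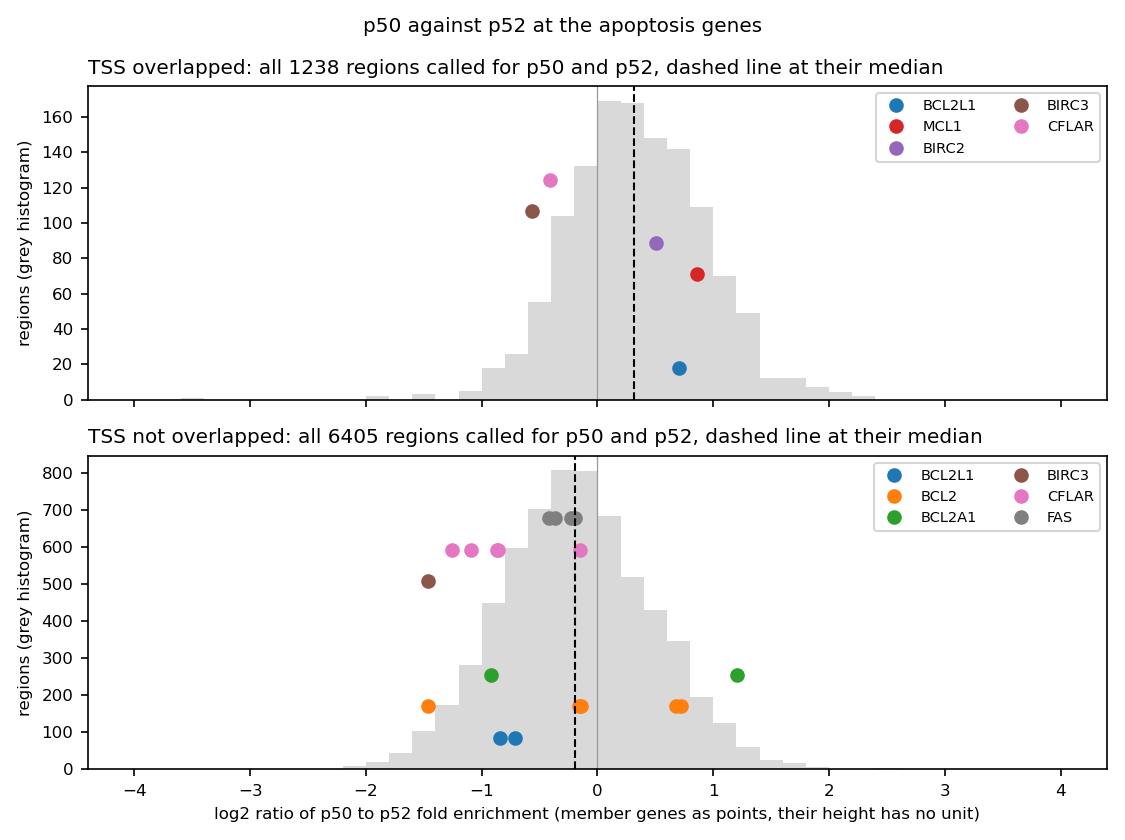
Log2 ratio of p50 to p52 fold enrichment in member regions called for both (points, coloured by gene) on the distribution over all such regions (grey histogram, dashed line at the median), for regions that overlap the TSS (top) and those that do not (bottom). The all-region medians are 0.32 and -0.20. The promoters of *BIRC3* and *CFLAR* are the member points below 0 in the top panel.

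p50 and p52 summits mostly coincided. Their distance had a median of 14 bp over the 24 regions and was at most 200 bp in 22, compared with 94.8% of all regions called for both. The exceptions were the *CFLAR* TSS region and the wide *BCL2* region. Of the 24 regions with more than 1 summit, 4 had them spread over more than 200 bp (7.66% of all such regions), namely those 2 and the TSS regions of *BCL2L1* and *BIRC2*.

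The signal values of the 2 replicates differed in the member regions about as they did in all regions. The median log2 ratio of signal value 2 to signal value 1 was -0.18 in p50 regions, 0.96 in those of p52 and 0.51 in those of RelB. Over all called regions the medians were -0.23, 0.98 and 0.83. The widest departures were -1.59 for p50 and 2.09 for p52, the latter at *BIRC3*. For RelA the 4 ratios ranged from -0.77 to 1.08 (n = 4), compared with a median of -0.51 over all 492.

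**Figure D4:**
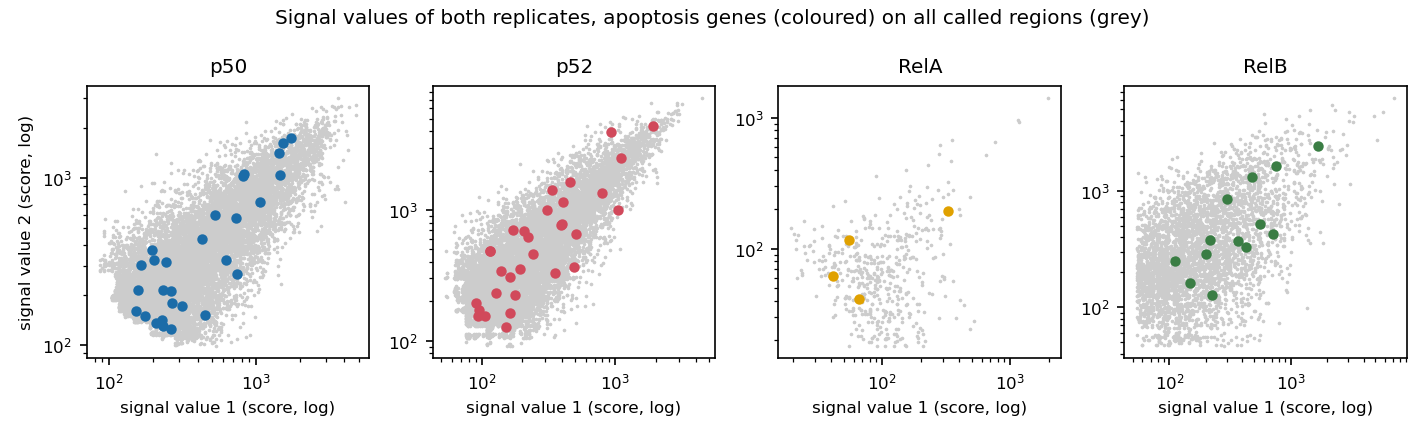
Signal value 2 against signal value 1 (scores without a stated unit, log axes) for all regions called for each subunit (grey) and for member regions (coloured). The member regions lie within the cloud of all regions, and 3 of the 4 RelA points lie at signal values of 117 or less.

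In regions without a RelA call the members had a median of 15.3 RelA reads per kb, the same as the 15.3 of all regions without a call. For RelB the medians were 14.7 and 16.5. The called RelA regions of *BIRC3* and *BCL2L1* had 52.8, 41.9 and 36.9 RelA reads per kb and that of *CFLAR* 26.4, which lies under the 27.4 of the *CFLAR* region 12.7 kb downstream that had no RelA call. The *CFLAR* TSS region is 3328 bp wide.

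**Figure D5:**
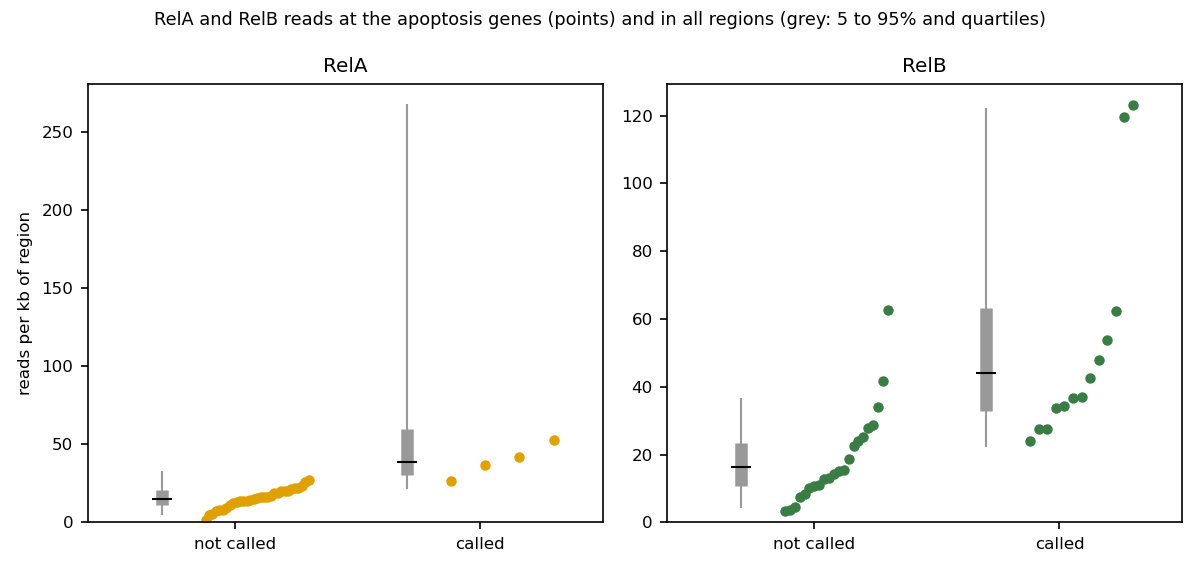
RelA and RelB reads per kb in member regions (points, sorted) with and without the respective call, beside all regions (black mark, median; thick grey bar, quartiles; thin line, 5 to 95%). The highest RelB point without a call, at 62.6 reads per kb, is the *BCL2L1* TSS region.

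Of 30 other apoptosis genes listed by function, 15 could be matched to an identifier and 9 of these had a region, 27 in all. The share of all annotated genes with a region was not determined, so 9 of 15 cannot be called high or low. p50 was called in 19, p52 in 23, RelB in 10 and RelA in none of the 27, compared with 73.8%, 73.3%, 26.8% and 3.31% of all regions. Among them *BCL2L11*, which encodes the BH3-only activator BIM, had 6 regions, with a TSS region at 37.1 for p50 and 30.9 for p52 and RelB called in the regions 80037 and 87747 bp downstream. *BAD* (BH3-only), *BCL2L10* and *BCL2L14* (BCL2-like) had 4 regions each. *BAX*, *BAK1*, *BOK*, *BCL2L2*, *BIRC5* and *APAF1*, among them the pore-forming effectors and the apoptosome scaffold, had none. The other 15 genes, the caspases among them, were not analysed here.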

How the data were processed

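ChIP-seq of 4 NF-κB subunits in L1236 cells (2 replicates each, 6 input libraries) was analysed from the deposited table of 14865 union regions. The authors processed reads with CASAVA, Bowtie and SAMtools, mapped them to hg18, kept unique reads without PCR duplicates, reduced libraries to 10000000 reads and called peaks with MACS on merged replicates. Versions are not given in the sources used here.

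The deposited read counts are whole numbers per region, not normalized, and whether they precede the reduction is not stated. Fold enrichment, as deposited, is a ratio (merged ChIP over input, at the summit), and the deposited pileup is the coverage signal there. The authors gave the IDR as a fraction and the FDR as a q-value, each with a threshold of 0.05, although every deposited IDR is below 0.01. The deposited signal values are a score per replicate with no stated scale, and which value belongs to which replicate or p52 antibody is not labelled. Distances to genes and TSS within 1 Mb are from Ensembl version 54. Exons and introns were not analysed.

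The members, the gene lists and the comparisons were chosen with earlier results of these data known. Gene identifiers of other apoptosis genes came from the readable part of a supplementary gene table. Peaks were called on merged replicates and regions are not replicates, so values were described by counts, medians and percentiles beside all regions, without tests. TSS and strand were solved from region edges and signed distances, which gave 1 solution for each of 2602 genes with at least 2 regions off the TSS, but none for *MCL1*. All regions within 1 kb of a member's TSS, the region with the highest fold enrichment of each member, and those with a RelA call or a single subunit were described; of the other apoptosis genes, those with most regions. This rule would name the 3 with most regions, and 3 genes tied behind *BCL2L11*. Alternatives were other thresholds, assignments, windows and measures of strength. The solver, the percentile and the intervals were tested on simulated data. Calculations were made in Python 3.11.15 with scipy 1.17.1, pandas 2.3.3 and numpy 2.4.6, and figures with matplotlib 3.10.9.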

Additional observations from a re-analysis of the deposited data

How the results depend on the processing

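Of 34 alternative counts of regions, 31 were within 1.5 times the reported count, but several of these could not have changed. Every deposited IDR is below 0.01, so a threshold of 0.01 removed nothing. A minimum fold enrichment of 5 could remove no p50, p52 or RelB call, whose lowest member values were 8.61, 8.78 and 7.10. The number of member regions called for p50 was 18 with an IDR below 0.001, a threshold chosen after seeing the data because all values were below 0.01, and the number called for RelA was 2 with that IDR and 2 at a minimum fold enrichment of 5. Ranked by other measures, the median percentile among called p50 regions was 33.1 for reads per kb. For p52 it was 53.6 for pileup and 41.6 for reads per kb, and for RelB 61.8 and 35.2. With either signal value alone, that is without replicate 1 or 2, it ranged from 37.5 to 46.8 for p50, from 51.4 to 55.7 for p52 and from 58.6 to 79.6 for RelB. The median log2 ratio of p50 to p52 was -0.54 for reads in the region, -0.21 without *CFLAR* and -0.49 without *FAS* among the merged values. From single signal values, leaving out a replicate of p50 and of p52, it was 0.28 and 0.090 with p52 signal value 1 and -0.72 and -1.13 with value 2. For reads, the median over all regions was -0.13. The cause of these shifts was not tested. No paired analysis was possible because all columns except the signal values hold merged replicates and the signal values carry no replicate number. The counts of calls could therefore not be recomputed without a replicate. Requiring all 4 summits within 200 bp, also added after seeing the data, left 2 of 3 regions. Member regions held 1 to 107 RelA reads.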
